A study of Drosophila melanogaster with 10 samples.

Results

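Cytosolic ribosomal protein genes of Drosophila melanogaster were followed in the wing imaginal disc, the sheet of larval cells from which the wing and the notum develop. Members were taken by name: symbols that start with RpL, RpS or RpLP and a number and do not end in -like, with a signal of 10 or more in no fewer than 2 libraries. This gave 84 genes out of 13041 in the table. The family held 87 such symbols, and 3 of them, RpS28a, RpL10Aa and RpS10a, stayed below the threshold. Just inside it lay RpL37b, with signals of 12.8 and 14.7 at 6 h and at most 9.83 elsewhere. Just outside lay RpS10a, with 18.7 in 1 library and at most 5.99 in the others. Of the members, 35 encode small subunit proteins, 46 large subunit proteins and 3 proteins of the ribosomal stalk. The symbol of 15 members ends in a or b, which marks a paralog, and that of 69 does not.

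A ribosome is built from ribosomal RNA and one copy of most ribosomal proteins, so the genes for these proteins are usually expressed together and at high levels in growing tissue. Losing one copy of many of these genes gives the Minute phenotype of flies, with slow growth and thin bristles. Wing discs are the classic tissue in which such cells are outcompeted by their neighbours. In Drosophila some ribosomal proteins are encoded by a pair of genes, one of which is often broadly expressed and the other mainly in the germ line.

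The discs came from the strain yw, with no mutation or treatment that separates the groups, and all larvae were in the third instar (L3). Collection times were 6, 15, 25, 35 and 48 h past the molt that ends the second instar, and by 48 h larvae had begun to wander. Each time had 2 libraries, named A and B, which makes 10. The sources used here do not say whether A and B came from separate collections, so each p-value measures the spread between these libraries, which may be technical.

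Values are signal, the read count of a gene divided by 1 size factor per library. Library totals ran from 16814685 reads at 35 h A to 38003104 at 48 h B. Libraries 15 h A and 15 h B differed more than other replicates: their log2 difference had an SD of 1.66 over all tested genes, against 0.537 to 0.872 for the other pairs. Over the 81 members with a mean signal of at least 1000 this SD was 0.0950 at 15 h, also the highest, against 0.0445 to 0.0820 elsewhere. All 10 wing disc markers were read, at 0.0892% to 0.295% of the reads of a library, and all 10 passed the test as higher at 48 h than at 6 h, against 22.3% of all tested genes. Markers of other tissues were read as well. The 9 fat body genes took 15.8% of reads in 25 h A, 8.73% in 25 h B and 0.201% to 1.79% elsewhere, and none was at 0 in every library. The 11 gut protease genes took 1.1% at 15 h A and 0.00108% to 0.687% elsewhere. The 8 haemocyte genes fell from 0.474% and 0.650% at 6 h to 0.0510% and 0.0638% at 48 h, where 7 of 8 passed the test as lower, against 26.8% of all tested genes. The part of these other cells in the results below was not tested, and in bulk samples fewer cells of a type and less RNA per cell cannot be told apart.

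Levels between genes were compared as signal per kb of exon, since longer transcripts give more reads. RpL41, which encodes the shortest ribosomal protein, stood highest at 220020 ± 34282 per kb (SD over n = 10 libraries) and ranked first in each library. RpLP2 of the stalk followed at 107771 ± 22584 per kb. RpS27A, whose protein is made as a fusion with ubiquitin, was at 98018 ± 5423, RpL27A at 85178 ± 9799 and RpLP1 of the stalk at 84650 ± 11158 per kb. The middle of the order was narrow: the lower quartile, median and upper quartile of the mean levels were 30940, 46140 and 56150 per kb. The per-kb medians were 46410 over the 35 small subunit genes and 44120 over the 46 large subunit genes.

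At the bottom of the order stood paralogs. RpL37b averaged 8.85 per kb, RpS19b 209, RpS15Ab 4297 and RpS14b 9375 per kb. Of 83 neighbouring places in the order, 5 showed ranges over the libraries that did not overlap. These were the step below RpL41, the step from RpS10b (17517 per kb) to RpL34a (10034 per kb), and the steps below RpS14b, RpS15Ab and RpS19b. All other neighbours overlapped. The coefficient of variation of the per-kb level over the 10 libraries had a median of 10.7% over the members, and it was lowest at 3.90%, for RpS29. It was above 25% for 4 members, among them RpL23A at 25.1% and the faint copies RpS19b at 34.2% and RpL37b at 164%.

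**Figure D1:**
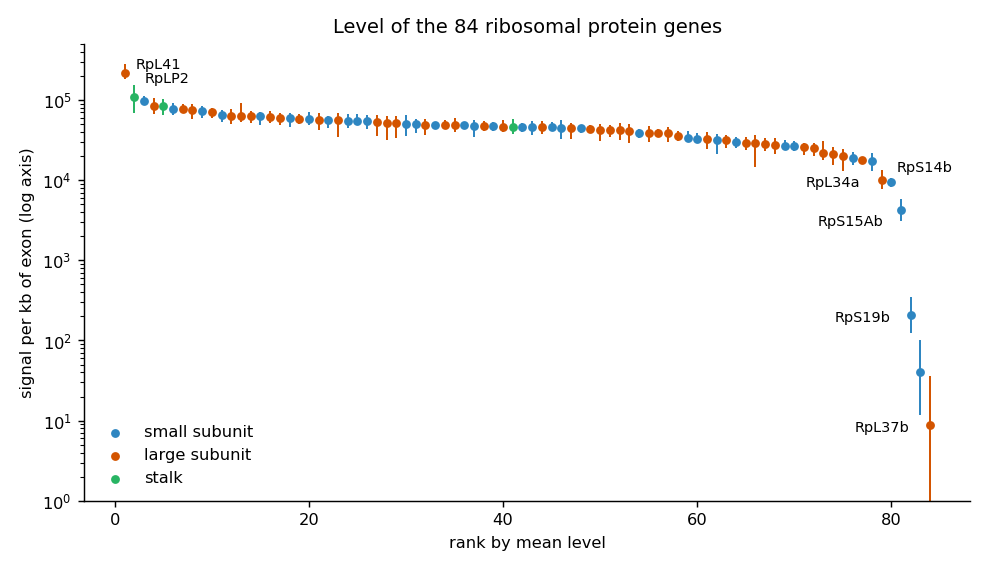
Signal per kb of exon (log axis) of the 84 members, ordered by mean. Points are means and vertical lines run from the lowest to the highest of 10 libraries; colours mark small subunit, large subunit and stalk. Lines that reach the lower edge include libraries with 0 reads. RpL41 stands above all others, and the 3 faintest paralogs, RpS19b and RpL37b among them, lie far below the rest.

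The share of all reads that fell on the members was 14.5% and 13.3% at 6 h, 9.61% and 13.6% at 15 h, then 11.0% and 13.0% at 25 h. They took 13.6% and 13.2% at 35 h and 14.6% and 15.2% at 48 h. The lowest shares lay in 15 h A and 25 h A, and the highest were both 48 h libraries. With ribosomal RNA and mitochondrial genes left out, 15 h B (15.9%) lay above 48 h A (15.8%) and below 48 h B (16.4%). A share depends on what else fills the library. Fat body genes took 15.8% of reads in 25 h A and 0.305% in 15 h A, where the member share was lowest. Their part in the member shares was not tested.

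On the signal scale, which the size factors set, the order of the times was different. The median signal over the 84 members was 43097 and 45245 at 6 h, 38170 and 40499 at 15 h, then 41838 and 39176 at 25 h. It was 34501 and 32563 at 35 h and 37549 and 39274 at 48 h. Both 6 h libraries were highest and both 35 h libraries lowest. Taken gene by gene, the 35 h libraries were the lowest pair of all 10 libraries for 54 of the 84 members (64.3%), against 7.57% of all tested genes. The 6 h libraries were the highest pair for 60 members (71.4%), against 13.5% of all tested genes. Of these 60, 1 is RpL37b, which entered the set through its 6 h values. The 35 h libraries were the highest pair for 6 members (7.14%), RpL38, RpL39, RpL41, RpL15, RpS27 and RpS15Ab, which is no more often than the 8.69% of all tested genes.

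**Figure D2:**
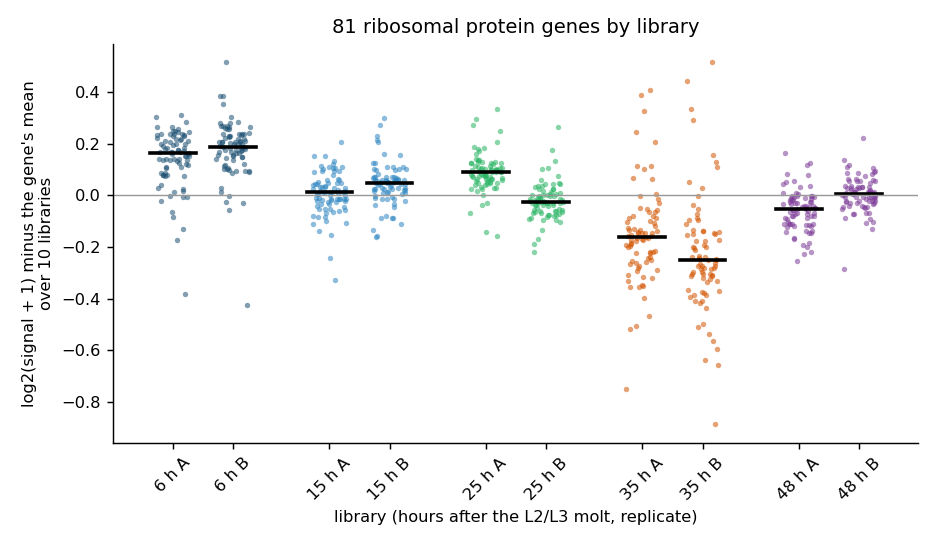
Each point is 1 of the 81 members with a mean signal of at least 1000; the vertical axis is log2(signal + 1) minus that gene's mean over the 10 libraries, and black bars are medians. The medians are 0.17 and 0.19 at 6 h and -0.16 and -0.25 at 35 h, and the 35 h points spread widest, from -0.75 to 0.41 in A and from -0.89 to 0.51 in B.

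The comparison of 35 h with 25 h asks how the members changed in mid instar. Of the 84 members, 11 were lower and 2 higher at 35 h. This is 15.5% of them, against 3.94% of all 10453 tested genes (3.09% lower and 0.851% higher). The median log2 change was -0.24 over the members and -0.01 over all tested genes. All 11 that fell encode proteins of the large subunit except RpS9, and both that rose encode very short large subunit proteins.

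RpL23A (FBgn0026372, 3L 1666288 to 1668654, minus strand), a protein at the exit of the ribosomal tunnel, fell most. Its signal was 41094 and 47651 at 6 h, 39467 and 44106 at 15 h, 46088 and 41269 at 25 h, 21751 and 19772 at 35 h, then 38702 and 39405 at 48 h. The 35 h libraries were the lowest and did not overlap any other time. The log2 change was -1.07 (SE 0.115, adjusted p 0.0193), from a mean signal of 43679 ± 3407 to 20761 ± 1399. It was also the 1 member to pass from 35 h to 48 h, where it rose by 0.91 (adjusted p 0.0461), against 0.392% of all tested genes. Part of its exons overlap the noncoding gene Uhg7 on the same strand, by 421 bases, which was not analysed here.

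RpL4, a protein that lines the tunnel, had signals of 83987 and 86826 at 6 h, 73640 and 82824 at 15 h, then 82588 and 76870 at 25 h. They were 49961 and 45362 at 35 h and 71960 and 75838 at 48 h, so that 35 h again lay below all other libraries. Its log2 change from 25 h to 35 h was -0.74 (SE 0.105, adjusted p 0.0250). RpL8, a protein near the peptidyl transferase centre, fell from 70001 ± 3770 to 43688 ± 3580 (log2 -0.68, adjusted p 0.0259). RpL34b fell by 0.68 and RpL22 by 0.58 on the log2 scale (adjusted p 0.0267 and 0.0275). RpL35A, RpL7A, RpS9, RpL27, RpL12 and RpL32 fell by 0.41 to 0.56 on the log2 scale.

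RpL38 (FBgn0040007, 2R 4515388 to 4516458, minus strand), whose mouse counterpart is known for a role in Hox gene translation, rose. Its signal was 19557 and 22235 at 6 h, 22279 and 21377 at 15 h, 19975 and 20124 at 25 h, 28855 and 30019 at 35 h, then 18485 and 20533 at 48 h. Both 35 h libraries lay above the other 8. The log2 change from 25 h was 0.55 (SE 0.093, adjusted p 0.0317).

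RpL41 (FBgn0066084, 2R 24903416 to 24903935, minus strand) had signals of 78316 and 73941 at 6 h, 62675 and 62258 at 15 h, then 62481 and 59802 at 25 h. They were 87328 and 87758 at 35 h and 59495 and 70011 at 48 h. Its log2 change from 25 h to 35 h was 0.52 (adjusted p 0.0473), and its 35 h libraries were again the highest. RpL39, a short protein of the tunnel wall, had signals of 17283 and 15908 at 25 h and 20911 and 25888 at 35 h (log2 0.49, adjusted p 0.0864).

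How many members passed depended on the tool, the scaling and single libraries. With edgeR 1 member passed, RpL23A (adjusted p 0.0386; 1.44% of all tested genes), and with DESeq2 44 passed (11.9%). No member passed after quantile normalization or with a common median of all genes (1.27% and 2.53% of all tested genes). The log2 change of all genes then shifted by 0.19 and 0.17, and the median of the members became 0.09 and -0.06. Without both 15 h libraries 41 members passed, 5 higher and 36 lower (23.8% of all tested genes). No member passed without 25 h A, or when any 35 h or 48 h library was left out, but then at most 2 of all 10453 genes did. RpL23A alone passed without 6 h A or 6 h B, where 57 and 37 of all genes passed. Without 25 h B 6 members and 387 of all genes passed.

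To ask how members moved against each other, signals were also scaled to a common median of the 84 members in each library. This removes any change that all share. From 25 h to 35 h, 17 members then passed, 10 higher and 7 lower, which is 20.2% against 15.8% of all tested genes. The higher ones were RpL38 (log2 0.83), RpL41 (0.79), RpL39 (0.76), RpS15Ab (0.55), RpS27 (0.54), RpL29 (0.49), RpS28b (0.40), RpL15 (0.35), RpS29 (0.29) and RpL21 (0.29). The lower ones were RpL23A (log2 -0.80), RpL4 (-0.47), RpL8 (-0.41), RpL34b (-0.41), RpL22 (-0.31), RpL35A (-0.29) and RpL7A (-0.27).

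From 35 h to 48 h, 8 members passed on this scale, 9.52% against 1.77% of all tested genes. Relative to the member median RpL38, RpL41, RpS27 and RpL21 fell by 0.79, 0.64, 0.44 and 0.37 on the log2 scale. RpL23A, RpL8, RpL4 and RpS9 rose by 0.72, 0.45, 0.44 and 0.36. Both steps use the 35 h libraries, so their opposite directions are not independent of each other. RpS27, a small subunit protein with a zinc finger, shows the size of the spread: its log2 level relative to the member median was -0.82 ± 0.05 at 6 h, -0.79 ± 0.02 at 15 h, -0.79 ± 0.03 at 25 h, -0.25 at both 35 h libraries and -0.69 ± 0.03 at 48 h (SD, n = 2).

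Without both 15 h libraries the counts on the relative scale were 28 for 35 h against 25 h and 19 for 48 h against 35 h, against 43.7% and 16.2% of all tested genes. For 35 h against 25 h no member passed without 25 h A or without either 35 h library. At most 2 of all 10453 genes passed there. With a 6 h or 48 h library or 25 h B left out 5 to 9 members and 320 to 862 of all genes passed. For 48 h against 35 h at most 1 member and 28 of all genes passed when any library other than a 15 h one was left out.

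**Figure D3:**
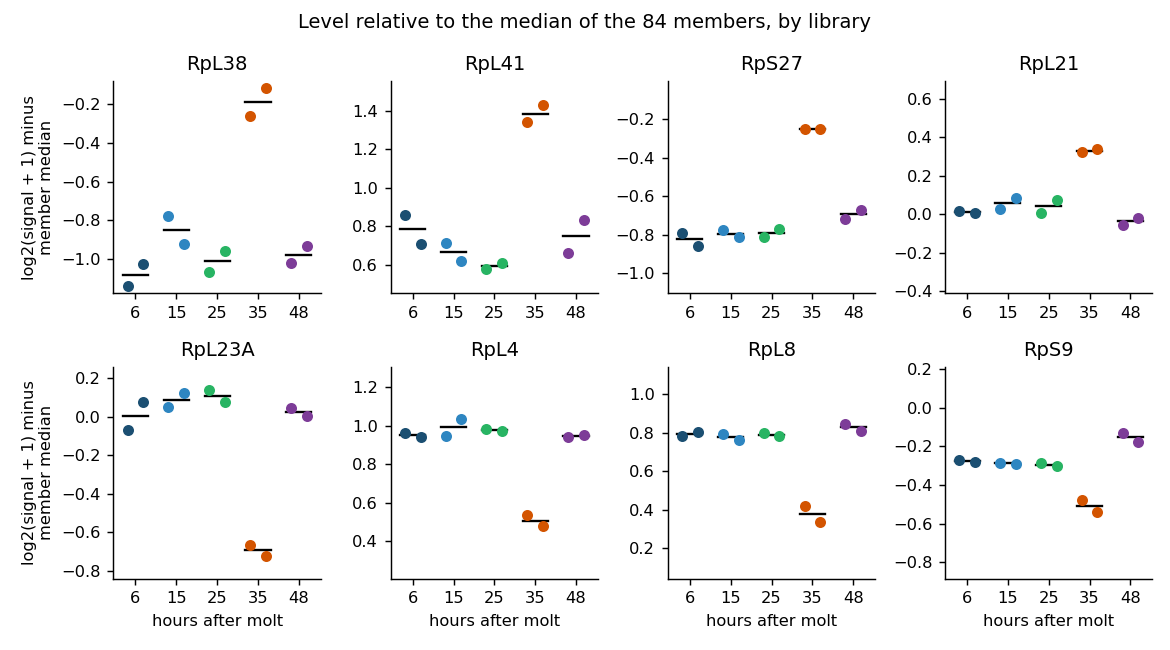
Log2(signal + 1) minus the median of the 84 members in the same library, for the 8 members that passed on the relative scale from 35 h to 48 h. Points are libraries, coloured by time, bars are the mean of 2 libraries, and each panel spans the same height. The upper 4 genes are highest and the lower 4 lowest at 35 h, and both libraries of that time lie together.

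Of the 10 members that were higher at 35 h on the relative scale, 7 had under 300 coding bases, and RpS15Ab, RpL21 and RpL15 had 390, 477 and 612. Of the 81 members with a mean signal of at least 1000, 10 had coding regions that short, a limit set after the values were seen. Their median relative log2 change from 25 h to 35 h was 0.45, and 9 of 10 were above 0. It was 0.01 over the 71 longer members, with 40 above 0. RpL41 has 75 coding bases, RpL39 153, RpS29 168, RpS28b 195, RpL38 210, RpL29 228 and RpS27 252, and all 7 passed. RpS21, RpL37a and RpL37A, with 249, 279 and 276 coding bases, had relative log2 changes of 0.12, 0.11 and -0.03 and did not pass. From 35 h to 48 h the median was -0.40 over the 10 short members and -0.01 over the others.

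Across the 81 members, Spearman's rho of coding length with the relative change was -0.538 from 25 h to 35 h and 0.446 from 35 h to 48 h. The points share libraries and depth, and genes are not replicates. Across 3997 other genes with a mean signal of at least 1000 the same coefficients were 0.160 and 0.207. These genes were not matched to the members by level. The 77 short ones among those genes had a median of 0.18 from 25 h to 35 h, on the same scale, against 0.29 for the 3920 longer ones. From 35 h to 48 h the median of the 77 was -0.435, with 5 above 0, against -0.178 for the longer ones. The short members thus had a like fall in this step. Both 35 h libraries were also the shallowest of the 10, at 16814685 and 17060414 reads. Whether transcript length, library preparation or depth had a part in the 35 h values was not tested.

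**Figure D4:**
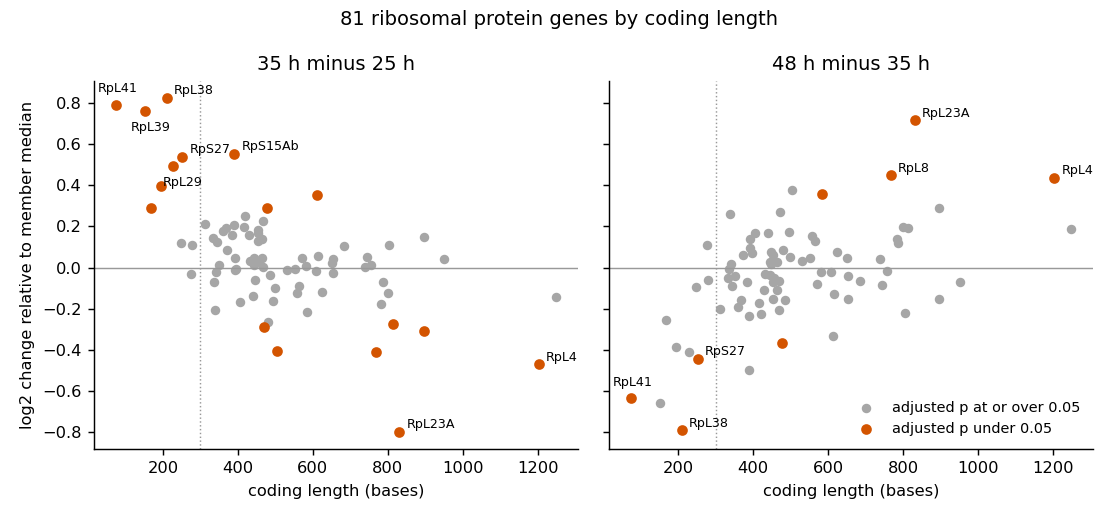
Log2 change relative to the member median against coding length in bases, for 81 members, from 25 h to 35 h (left) and from 35 h to 48 h (right). Orange points passed an adjusted p of 0.05 and the dotted line marks 300 bases. The shortest genes lie highest on the left and lowest on the right.

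The comparison of 48 h with 6 h spans the whole time course. Of the 84 members 23 fell and none rose; 1 of the 23 is RpL37b, which entered the set through its 6 h values. This is 27.4%, close to the 26.8% of all tested genes that were lower (22.3% were higher, 49.1% in either direction). The median log2 change was -0.21 over the members and -0.10 over all tested genes. All 3 stalk genes were among those that fell, with 7 of 35 small subunit and 13 of 46 large subunit genes.

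RpLP0, RpLP1 and RpLP2 form the stalk, which recruits the translation factors that hydrolyse GTP. RpLP2 had signals of 79152 and 91161 at 6 h, 69085 and 65490 at 15 h, 66639 and 61254 at 25 h, 49865 and 42211 at 35 h, then 62651 and 63433 at 48 h. Its log2 change from 6 h to 48 h was -0.43 (SE 0.121, adjusted p 0.0246). RpLP1 fell from 76676 ± 1431 to 60230 ± 1502 and RpLP0 from 73966 ± 1157 to 58099 ± 1891, each by 0.35 on the log2 scale (adjusted p 0.0162 and 0.0164). All 3 genes had both 6 h libraries highest and both 35 h libraries lowest. Among the 84 members, 60 had both 6 h libraries highest and 54 had both 35 h libraries lowest. Relative to the member median no stalk gene passed from 6 h to 48 h.

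Of the small subunit, RpS20 fell from 37059 ± 166 to 28698 ± 1113 (log2 -0.37, adjusted p 0.00852) and RpS3A, the 1 member on chromosome 4, from 91091 ± 737 to 69006 ± 3039 (log2 -0.40, adjusted p 0.00997). RpL11, which with RpL5 carries the 5S ribosomal RNA into the large subunit, fell by 0.25 (adjusted p 0.0356). RpL5 itself went from 71019 ± 2250 to 67243 ± 3165 (log2 -0.08, adjusted p 0.474). RpS6, the substrate of S6 kinase, had a log2 change of -0.16, RpS3 one of -0.16 and RpS12, which flies need for the response to Minute mutations, one of -0.21 (adjusted p 0.194, 0.171 and 0.0816). The ubiquitin fusion genes RpL40 and RpS27A had log2 changes of -0.17 and -0.18 (adjusted p 0.0972 and 0.132).

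The log2 change of -0.64 of RpS19b did not pass (adjusted p 0.0786), nor did the largest rises. RpS15Ab changed by 0.45, RpS14b by 0.22, RpL22 by 0.12 and RpS29 by 0.05 on the log2 scale (adjusted p 0.0549, 0.0644, 0.299 and 0.659). RpL15 was at -0.03. On the scale of the common member median 6 members passed, against 53.6% of all tested genes. Of these 6, 1 is RpL37b, which entered the set through its 6 h values. RpS15Ab, RpS14b, RpL22 and RpS29 were higher by 0.65, 0.42, 0.32 and 0.25. Without both 15 h libraries 10 passed on that scale, RpL37b again among them (69.4% of all tested genes).

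The direction at 48 h depends on the scaling. With a common median of all genes the log2 change of all genes shifted by 0.32 and with quantile normalization by 0.43, and the median of the members became 0.11 and 0.17. The median of the members stayed below that of all tested genes on each scale, by 0.11 with the deposited values, 0.11 with a common median and 0.16 after quantile normalization. With edgeR 3 members passed, among them RpS3A lower and RpS14b higher (47.5% of all tested genes), and with DESeq2 41 (55.2%). Without both 15 h libraries 47 passed, 2 higher and 45 lower (68.6%). Without 48 h A none passed, without 48 h B only RpS20 and RpS3A, without 6 h B only RpS20, and without 6 h A 4 members, while 2690, 2499, 2967 and 2995 of all 10453 genes passed. Without 35 h A or 35 h B 13 members passed, with 4313 and 4316 of all genes.

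The first steps gave few calls. From 6 h to 15 h no member passed with limma, against 4.22% of all tested genes, and the median log2 change was -0.14. There edgeR called none of all 10453 genes. DESeq2 called 8 members, all lower, among them RpS20 and RpLP0 (13.0% of all tested genes). From 15 h to 25 h no member passed with limma, against 0.134% of all tested genes, and the median change was -0.00. With edgeR no member and 3 of all 10453 genes passed. DESeq2 called RpL22, which was higher (11.2% of all tested genes). From 35 h to 48 h the median log2 change was 0.16, and without both 15 h libraries 21 members passed, 18 higher and 3 lower (10.0% of all tested genes). Over all 5 times 42 of the 84 members passed the F test, against 38.4% of all tested genes. This count fell to 9 without 35 h A and 1 without 35 h B, with 1982 and 1938 of all 10453 genes, and lay between 8 and 26 without any 1 library of 6, 25 or 48 h, where 1609 to 2982 of all genes passed. RpL23A had the lowest adjusted p of them, 0.00306.

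RpL22 rose by 0.41 on the log2 scale from 15 h to 25 h relative to the member median, but did not pass (limma adjusted p 0.0951). Its signal was 22966 and 25049 at 6 h, 19514 and 21056 at 15 h, 27908 and 27707 at 25 h, 19516 and 17740 at 35 h, then 25191 and 26949 at 48 h. The libraries at 25 h and 48 h lay above those of the other times. At 48 h A the margin was small, 25191 against 25049 at 6 h B. Relative to the member median, RpL23A, RpL4, RpL8 and RpL34b also fell to 35 h and rose to 48 h. The exons of RpL22 overlap a noncoding RNA on the same strand by 377 bases. RpL22-like, its germ line relative that lies outside the family as defined here, had signals of 54.4 ± 21.2 at 6 h and 15.8 ± 6.29 at 48 h (log2 -1.72, adjusted p 0.101).

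Among the paralogs the family held 9 pairs of genes that differ by a final a and b. In all 9 the same copy was the higher one in 10 of 10 libraries, per kb of exon and per kb of coding sequence. In 6 pairs the higher copy lies on the X chromosome and the lower one on an autosome. In 2 both lie on 1 chromosome, RpL34a and RpL34b on 3R and RpS14a and RpS14b on X. The lower copy stayed below the threshold in 3 pairs. Over all 10 libraries RpS10a had 33 reads against 271120 of RpS10b, RpL10Aa 4 against 581880 of RpL10Ab, and RpS28a 1 against 315641 of RpS28b.

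Both copies were well expressed in 3 pairs. RpL34a made up 28.5% to 37.8% of the summed per-kb level of its pair, with a median of 33.4%, highest at 35 h (37.8% and 37.5%) and lowest at 48 h (30.3% and 28.5%). RpS14b made up 22.9% to 28.2%, lowest at 6 h (23.2% and 22.9%). The deposited table lists the symbol RpS14a on 2 rows, and the row with the ID FBgn0004404 was taken as RpS14b from that ID. RpS14a and RpS14b are near-identical neighbours known to encode the same protein, so the split of reads between them depends on how the authors counted and is uncertain. RpS15Ab made up 5.74% to 10.9%. Its share was 6.06% and 5.74% at 6 h, 6.91% and 9.86% at 15 h, 8.38% and 9.20% at 25 h, 10.9% in both 35 h libraries, then 9.17% and 9.32% at 48 h. The signal of RpS15Ab itself was 2349 and 2275 at 6 h and 4049 and 3746 at 35 h.

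In the other 3 pairs the lower copy was faint. RpS19b made up 0.495% to 1.02% of its pair, with both 6 h libraries at 1.02% and all later ones at or below 0.786%. RpL37b had 15 and 11 reads at 6 h, 7 at 25 h A and 0 in the other 7 libraries. Since it entered the set through its 6 h values, no fold against 6 h is given. Of 5 genes tested from a germ line list, ovo was higher at 48 h than at 6 h (mean signal 2125 to 6316). Of the same 5, bam was lower (40.1 to 10.6), and of all tested genes 22.3% were higher and 26.8% lower. The other genes of the list lay far below ovo, the highest mean being 71.8 for aub at 35 h. Whether the reads of ovo came from germ line cells was not tested. The median log2 change of the 5 genes was -0.22, and vas had signals of 41.1 and 61.4 at 6 h and 18.7 and 17.3 at 48 h (adjusted p 0.105).

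The balance of the copies was tested in each of the 6 pairs with both genes in the set, as the difference of log2(signal + 1) within a library, which for well expressed copies hardly depends on the size factors. An exact permutation test over 945 ways to divide the libraries among the 5 times (one-sided for a larger F ratio, smallest possible p 0.00106) gave p = 0.00635 for RpL34 and 0.0116 for RpS14. Adjusted by Benjamini-Hochberg over the 6 pairs both exact values were 0.0349. RpS15A and RpS19 had exact p-values of 0.0370 and 0.0497, each 0.0497 after adjustment. With a pseudocount of 10 in the exact permutation test these became 0.0556 and 0.0584 and no longer passed, while RpL34 and RpS14 stayed at 0.0349. No p is given for RpL37, because RpL37b passed the filter on low values only through its 6 h libraries. From 6 h to 48 h the log2 ratio of the a to the b copy changed by -0.29 in RpL34, -0.36 in RpS14, -0.70 in RpS15A and 0.48 in RpS19. In the exact permutation tests no pair passed without a 35 h or a 48 h library, while RpL34 and RpS14 passed without each of the others. With 1 library left out, RpS15A and RpS19 passed only where that was a 15 h library.

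**Figure D5:**
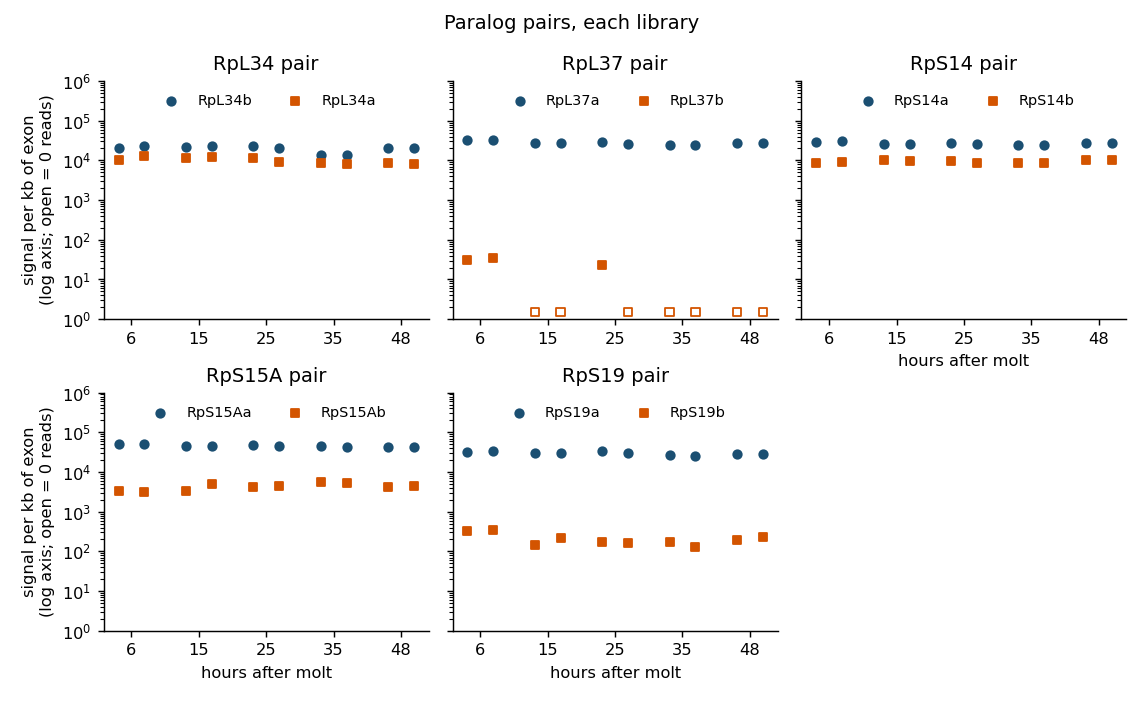
Signal per kb of exon (log axis) in each library for 5 of the 6 pairs with both copies among the 84 members. Circles are the higher copy, squares the lower copy, and open squares at the base are libraries with 0 reads. The copies of RpL34 and RpS14 lie close together, those of RpS15A farther apart, and the lower copies of RpS19 and RpL37 far below.

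Genes that make ribosomes without being part of them were set beside the members, on a list whose fall was already known from these data. Of 22 ribosome assembly genes, 15 were lower at 15 h than at 6 h with limma (median log2 change -1.04). Of all tested genes 2.90% were lower. With edgeR 0 of all 10453 genes passed in this step. The 22 genes took 0.652% and 0.595% of reads at 6 h, and 0.197% and 0.409% in the discordant 15 h libraries. At 48 h 20 of the 22 were lower than at 6 h (median -0.95), against 26.8% of all tested genes, among them nclb, mod and Surf6, with log2 changes of -1.36, -1.27 and -1.20. The median of the ribosomal protein genes in these comparisons was -0.14 and -0.21. RpLP0-like, an assembly factor related to the stalk protein, fell by 1.03 (adjusted p 0.00180). Of the ribosomal proteins with other names, sta had signals of 110318 and 110464 at 6 h and 90530 and 96445 at 48 h, and Rack1 74803 and 77154 at 6 h and 65107 and 68095 at 48 h (adjusted p 0.0928 and 0.141), and both were lowest at 35 h.

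Of 12 genes of growth control and ribosomal protein gene control that were tested, 2 were higher and 4 lower at 48 h, close to the 22.3% and 26.8% of all tested genes. Pep and Tor, the kinase that senses nutrients, rose by 0.47 and 0.34 on the log2 scale. Thor, an inhibitor of translation initiation, fell by 2.62, foxo, a factor of low insulin signalling, by 0.79, S6k, the kinase of RpS6, by 0.67, and Tif-IA, which starts transcription of ribosomal RNA, by 0.50. Myc, an activator of ribosome synthesis, changed by 0.34 (adjusted p 0.287). Xrp1, which acts when ribosomal proteins are short in flies, fell by 1.14 (adjusted p 0.00583), and its partner Irbp18 rose by 0.62 (adjusted p 0.0113).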

How the data were processed

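The deposited signal values are normalised gene counts: in each library the authors scaled all counts by a single size factor. Per the submitters' processing notes the tools were STAR 2.7.10a and featureCounts and the genome builds were dm6 and BDGP6. Strand handling, the normalization tool and any filter are not given in the sources used here. The labels name polyA RNA while their protocol describes stranded total RNA libraries with ribosomal RNA depletion. Whole reads were recovered from the signal (100% of values within 0.001 of a whole read).

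The main test was limma 3.58.1 (R 4.3.3, trend) on log2(signal + 1) with 5 time means, over 10453 genes that reached a signal of 10 in 2 or more libraries, while 2588 were not tested. P-values were two-sided and Benjamini-Hochberg adjusted over all tested genes, with a threshold of 0.05. Fold changes are on the log2(signal + 1) scale, which understates low genes. The test was checked on simulated data. Alternatives were edgeR 4.0.16 and DESeq2 1.42.0 on the recovered reads, other scalings, filters and pseudocounts, and libraries left out. Paralog ratios were tested with an exact permutation test. Coordinates and lengths are from the Ensembl BDGP6.54 annotation, release 115 (dm6). By rule the text names the paralogs, the stalk, ubiquitin fusion and individually known genes, the 5 largest changes per direction, the 5 highest and 5 lowest levels, the 5 farthest from the member median, and up to 3 per direction of other lists. Further members that passed, among them RpS20, RpS3A and those called relative to the member median, were named after their values were seen. Further genes of the other lists, among them Tif-IA and Myc, were named outside this rule. Members and lists were chosen with earlier results of these data known. Results for 1 paralog pair are not reported here.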

Additional observations from a re-analysis of the deposited data

How the results depend on the processing

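With 2 libraries per time and 5 residual degrees of freedom, the number of members that passed moved with most settings, and the cause was not tested. From 6 h to 15 h DESeq2 gave 8 and from 15 h to 25 h 1, with 1361 and 1169 of all 10453 genes. From 25 h to 35 h the count of 13 became 0 with quantile normalization or a common median of all genes. It became 6 with the replicate block, 1 with edgeR, 44 with DESeq2 and 41 without both 15 h libraries. Of all 10453 genes 133, 264, 240, 151, 1246 and 2488 passed in that order. From 35 h to 48 h the count of 1 became 2 with a filter of 50. It became 0 with quantile normalization, a common median, the replicate block or edgeR. With the member median it became 8, with DESeq2 32 and without both 15 h libraries 21. Of all tested genes 53, 1, 21, 2, 10, 185, 558 and 1046 passed in that order. From 6 h to 48 h the 23 became 0 with quantile normalization, 4 with a common median, 6 with the member median, 15 with the replicate block, 3 with edgeR, 41 with DESeq2, 47 without both 15 h libraries and 13 without both 35 h libraries. Of all 10453 genes 5321, 5346, 5607, 4996, 4970, 5775, 7170 and 4290 passed there in that order. Over all times the 42 became 2, 3, 22, 24, 14, 67, 69 and 0 in the same order. Of all 10453 genes 3637, 3670, 5305, 3636, 3831, 6114, 7331 and 2280 passed over all times. Relative to the member median, 28, 19 and 10 passed without both 15 h libraries in the last 3 comparisons, and from 35 h to 48 h the 8 became 5 with a pseudocount of 10, 4 with no filter or the mean of the members, and 2 with the replicate block. Of all tested genes 4564, 1696 and 7252 passed without the 15 h libraries, and 137, 123, 92 and 38 in the other fits, in order. Of the 6 paralog pairs 2 passed with a pseudocount of 10 and 0 with the replicate block. The letters A and B did not pair the libraries: the correlation of A minus B differences between times ran from -0.059 to 0.161. The mean share of reads over the 10 libraries was 14.67% without ribosomal RNA and mitochondrial genes.

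Leaving out 1 library at a time gave 0 to 6, 0 to 2, 0 to 41, 0 to 21 and 0 to 47 members in the 5 comparisons in order and 1 to 64 over all times. Relative to the member median it gave 0 to 6, 0 to 2, 0 to 28, 0 to 19 and 1 to 10, and 0 to 4 paralog pairs. In the fits with 1 library left out, the number of all tested genes that passed also moved widely, in each of the 5 comparisons and on both scales. The ranges of the members therefore cannot be read as a change particular to them. The log2 change from 6 h to 48 h turned positive for RpL11 (0.1145 with quantile normalization, 0.06886 with a common median), RpL37a (0.05095 and 0.06344), RpS15Aa (0.1578 and 0.0712) and RpLP0 (0.03308 with quantile normalization). The omission of both 35 h libraries and all alternatives to the fit relative to the member median were chosen after seeing the data.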
